A study of Mus musculus with 2 samples.

Results

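The genes described here encode the ligands and receptors of the tumour necrosis factor (TNF) superfamily and the adaptor proteins that carry their signal into the cell. They were chosen by gene symbol: every Tnfsf and Tnfrsf gene, Traf1 to Traf7, and Tnf, Lta, Ltb, Ltbr, Cd40lg, Cd40, Cd27, Cd70, Fas, Fasl, Tradd and Ripk1. This gave 50 of the 22036 named genes in the deposited count table. Of the 50, 36 had a mean of at least 1 CPM (the count scaled to library size) over both libraries and are called measured, among 10597 measured genes in all. A further 6 had counts below that level, and 8 had no count in either library.

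The libraries come from a study of Foxo1 and TGFβ1 in the fate of Th17 cells, a class of helper T cell defined by the cytokine IL-17. Wild-type mice gave the CD4 T cells, from spleen and lymph nodes, and these were put on plates carrying anti-CD3 (10 μg/mL) and anti-CD28 (5 μg/mL) and were lysed after 24 h. The culture labelled pathogenic Th17, here pTh17, received 20 ng/mL IL-6 with 20 ng/mL activin A. The culture labelled non-pathogenic Th17, here npTh17, received 20 ng/mL IL-6 with 2 ng/mL TGFβ1. Both also held antibodies against IFNγ and IL-4, so they differed in the TGF-β family ligand. No culture without cytokines, without IL-6 or without T cell receptor stimulation is among the samples used here, and neither the number nor the age of the mice is given in the labels.

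There was 1 library per condition, so no difference here has a replicate check, no test between conditions was made, and each ratio compares these 2 libraries. Counts on named genes summed to 30877656 in the pTh17 library and 33470161 in the npTh17 library. Folds are ratios of CPM after library-size scaling, and the range behind each fold is an exact (Clopper-Pearson) 95% interval that covers counting error only. These intervals can be too narrow, because a fragment may have added more than 1 to a count. An interval that ends close to 1, as for Tnfrsf8, Tnfrsf21 and Traf3 below, is therefore weak ground for a difference. The 7 T cell markers summed to 2613 CPM in the pTh17 and 2634 CPM in the npTh17 library, and the 6 Th17 markers to 1139 and 1162 CPM. Of 6 B cell markers, 3 were at 0 in both libraries, among them Pax5 and Cd22, and the sum was 25 counts against 6. The sums in the pTh17 and the npTh17 library were 117 and 153 counts for 5 macrophage and monocyte markers, 4 and 8 for 5 dendritic cell markers, 49 and 98 for 4 NK cell markers, and 59 and 63 for the CD8 T cell pair. Nearly all NK cell marker counts came from Klrd1 (47 and 98), with Ncr1 and Klrb1c at 0. Most macrophage and monocyte marker counts came from Cd68 (110 and 123). Erythroid markers summed to 51 and 73 counts and stromal markers to 253 and 296, the latter nearly all from Pecam1. In a bulk library, fewer cells that express a gene and less RNA per cell cannot be told apart.

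TNF superfamily ligands are mostly made as trimers on the cell surface, and each binds 1 or a few receptors on a neighbouring cell. Receptors without a death domain, such as OX40, GITR and 4-1BB, recruit TRAF proteins and costimulate T cells through NF-kB and MAP kinases. Receptors with a death domain, such as Fas and the first TNF receptor, bind FADD, TRADD or RIPK1 and can lead to cell death or to NF-kB. In activated helper T cells the family is known for prolonging expansion and survival, for giving help to B cells through CD40 ligand and for ending responses through Fas.

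Promoter sequences are shown for 5 of the members described below. Ltb and Tnfrsf9 were higher in the pTh17 library, and Tnfrsf1b, Tnfrsf13b and Tnfrsf23 were higher in the npTh17 library. Each window runs from 250 bases before to 50 after an annotated start (RefSeq, build GRCm38.p6), 5′ to 3′ on the gene's own strand. Capitals mark matches on either strand to GGANTTTCC (a form of Rel/NF-kB site), TGANTCA (AP-1) or TTCNNNGAA (STAT). Other forms of these sites were not searched for and are not capitalised.
Ltb, chr17:35194257-35194556, plus strand: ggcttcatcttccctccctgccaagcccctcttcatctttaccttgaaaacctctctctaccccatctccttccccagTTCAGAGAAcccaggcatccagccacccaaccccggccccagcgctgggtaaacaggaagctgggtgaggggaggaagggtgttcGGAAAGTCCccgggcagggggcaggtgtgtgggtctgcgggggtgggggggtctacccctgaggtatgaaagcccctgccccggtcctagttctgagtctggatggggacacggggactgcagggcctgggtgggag
Tnfrsf9, second annotated start, chr4:150927749-150928048, plus strand: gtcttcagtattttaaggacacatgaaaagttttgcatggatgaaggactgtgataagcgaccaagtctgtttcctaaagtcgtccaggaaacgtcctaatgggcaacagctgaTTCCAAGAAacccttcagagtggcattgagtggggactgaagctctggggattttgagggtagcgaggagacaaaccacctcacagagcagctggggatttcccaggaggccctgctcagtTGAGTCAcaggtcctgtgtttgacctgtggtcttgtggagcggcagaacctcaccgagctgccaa
Tnfrsf1b, chr4:145246821-145247120, minus strand: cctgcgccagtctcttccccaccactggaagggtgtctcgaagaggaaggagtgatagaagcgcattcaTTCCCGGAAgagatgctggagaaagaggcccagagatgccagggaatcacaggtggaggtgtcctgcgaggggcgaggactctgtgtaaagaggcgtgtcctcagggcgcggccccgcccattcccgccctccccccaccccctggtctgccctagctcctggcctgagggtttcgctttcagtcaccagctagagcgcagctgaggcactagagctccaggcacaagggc
Tnfrsf13b, chr11:61126505-61126804, plus strand: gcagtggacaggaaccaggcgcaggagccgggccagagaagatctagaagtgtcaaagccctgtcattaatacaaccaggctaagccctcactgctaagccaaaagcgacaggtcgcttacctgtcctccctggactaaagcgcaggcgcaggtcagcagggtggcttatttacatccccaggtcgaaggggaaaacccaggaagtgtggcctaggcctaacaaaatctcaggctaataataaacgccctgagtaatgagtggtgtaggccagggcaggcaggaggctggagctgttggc
Tnfrsf23, chr7:143685826-143686125, minus strand: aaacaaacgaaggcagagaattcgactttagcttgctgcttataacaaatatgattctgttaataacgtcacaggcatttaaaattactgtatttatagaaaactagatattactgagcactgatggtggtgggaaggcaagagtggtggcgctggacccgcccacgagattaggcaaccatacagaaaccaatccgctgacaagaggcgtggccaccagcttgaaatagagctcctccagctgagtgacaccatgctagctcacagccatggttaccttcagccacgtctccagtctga

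The Ltb window held a Rel/NF-kB match that starts 87 bases before the annotated start and a STAT match 172 bases before it. The Tnfrsf9 window shown held an AP-1 match 15 bases and a STAT match 136 bases before the start, and the window at its first annotated start held none of the 3 motifs. Tnfrsf1b had a STAT match 181 bases before its start. No match to these letters lies in the Tnfrsf13b or the Tnfrsf23 window. The windows shown do not stand for the others. Only the Ltb window among the members held a match to the Rel/NF-kB letters searched, which leaves other forms of that site uncounted. The Traf1 window held none of the 3 motifs, though its ratio exceeded that of Ltb. AP-1 or STAT matches also lay in windows of Fas, Tnfrsf8 and Ripk1, higher in the npTh17 library, and of Lta, Tnfrsf18 and Tnfsf14, higher in the pTh17 library. Over the 44 member windows, which cover 39 genes, the Rel/NF-kB letters were in 1 (2.27%), the AP-1 letters in 7 (15.9%) and the STAT letters in 10 (22.7%). Among all 32851 windows of the same length the shares were 1.254%, 7.81% and 8.30%. The short SMAD letters CAGAC, which are not capitalised, were in 23 of the 44 windows (52.3%) and in 49.6% of all windows. The motifs were counted independently of each other, so a base can belong to more than 1 match, and a match describes letters, not binding.

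The measured members were on balance neither higher nor lower in the pTh17 library, but their roles differed. Their median log2 ratio, pTh17 over npTh17, was −0.03, against −0.00 for all measured genes, and 17 lay above and 19 below a ratio of 1, beside 49.4% and 50.6% of all measured genes. The counting interval lay wholly above 1 for 13 members and wholly below 1 for 12, beside 33% and 34% of all measured genes. The ligands had a median of 0.49, the receptors −0.19 and the adaptors −0.08. At a 2-fold threshold, 1 of the 36 (Tnfrsf9) was higher in the pTh17 library, where 2.25% of all measured genes passed, and 3 (Tnfrsf23, Tnfrsf26 and Tnfrsf13b) were higher in the npTh17 library, where 1.95% passed. At 1.5-fold the counts were 7 members toward the pTh17 library, against 7.2% of all genes, and 5 toward the npTh17 library, against 5.76%. The 7 were Tnfrsf9, Traf1, Ltb, Tnfsf11, Tnfsf8, Tnfrsf18 and Tnfsf14, and the 5 were Tnfrsf23, Tnfrsf26, Tnfrsf13b, Tnfrsf1b and Fas. When the minimum was raised to 5 CPM, which left 31 members, the same 1 and 3 passed 2-fold, beside 1.04% and 1.09% of 9265 genes. With so few members past either threshold, each gene's own counts say more than these shares.

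**Figure D1:**
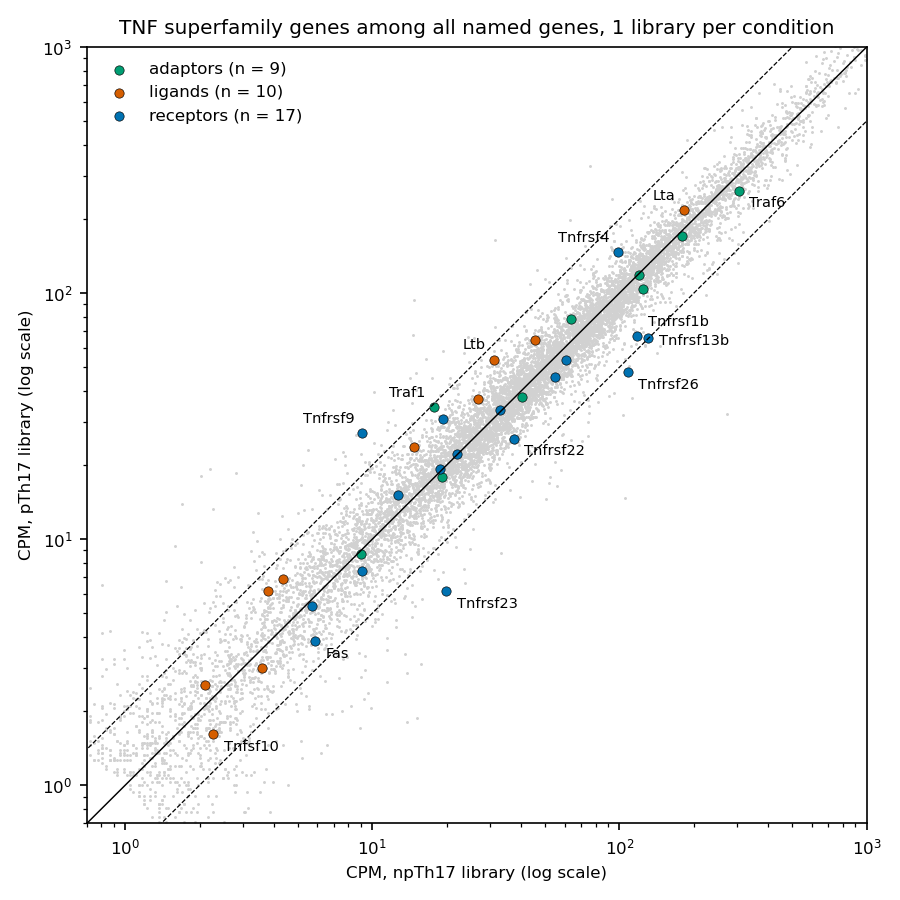
CPM of each measured gene in the npTh17 library (x axis) and the pTh17 library (y axis), both on log scales, with 1 library per condition. Grey points are all measured genes within the axes and coloured points the 36 measured members, split into 10 ligands, 17 receptors and 9 adaptors; the solid line is a ratio of 1 and the dashed lines are 2-fold, above which lies Tnfrsf9 and below which lie Tnfrsf23, Tnfrsf26 and, on the line, Tnfrsf13b.

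Ligand transcripts were mostly more abundant in the pTh17 library. Of 17 ligand genes 10 were measured, 8 of them had a ratio above 1, and for 7 the counting interval lay wholly above 1. Over all measured genes, 49.4% had a ratio above 1 and 33% an interval wholly above it. None of the 10 ligands had an interval wholly below 1 (34% of all measured genes) and none reached 2-fold. Toward the pTh17 library 4 reached 1.5-fold, beside 7.2% of all measured genes. The log2 ratios of the 10 ran from −0.48 to 0.79.

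The lymphotoxin and TNF genes lie side by side within 10.9 kb of chromosome 17. They encode the closely related cytokines TNF and lymphotoxin α, and lymphotoxin β, which holds lymphotoxin α at the cell surface. Ltb (ENSMUSG00000024399, chromosome 17, 35194439 to 35196320, GRCm38) had 1660 counts in the pTh17 and 1035 in the npTh17 library, or 53.7 and 31.0 CPM, a 1.73-fold ratio (1.60 to 1.88). Tnf had 1993 and 1526 counts, or 64.5 and 45.7 CPM, and was 1.41-fold higher in the pTh17 library (1.32 to 1.51). Lta had the most counts of any ligand, 6711 and 6086, and the smallest of the 3 ratios at 1.19-fold (1.15 to 1.23). All 3 genes were thus higher in the pTh17 library, in the order Ltb, Tnf, Lta, with intervals that do not overlap. The Ltb and Lta transcripts are short and rich in G and C, and with the trend of the ratio on transcript length and GC content removed their log2 ratios were 0.61 and 0.08 in place of 0.79 and 0.25.

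Per transcript length, Lta was the most abundant of all 50 genes in both libraries. Its FPKM, the authors' fragment value per length and depth, was 137.5 in the pTh17 and 115.8 in the npTh17 library. Within the pTh17 library the FPKM of Lta was 3.39 times that of Ltb and 3.99 times that of Tnf. Within the npTh17 library these ratios were 4.94 and 4.73. Ltb had rank 3 among the members by FPKM in the pTh17 library and rank 12 in the npTh17 library.

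Next in size were 3 ligand genes at lower levels. Tnfsf8, which encodes CD30 ligand, had 733 and 492 counts in the pTh17 and the npTh17 library, or 23.7 and 14.7 CPM, a 1.61-fold ratio (1.43 to 1.81). Tnfsf11, which encodes RANK ligand, the cytokine that drives osteoclast formation, had 190 and 127 counts and also a 1.61-fold ratio (1.29 to 2.04). Tnfsf14, which encodes LIGHT, had 213 and 145 counts and a 1.58-fold ratio (1.28 to 1.97). Their folds were close to each other and to that of Ltb, and the wider intervals follow their lower counts.

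Cd40lg, through which helper T cells activate B cells and antigen-presenting cells, was 1.39-fold higher in the pTh17 library (1.27 to 1.52). Its counts were 1153 and 896, or 37.3 and 26.8 CPM. The remaining measured ligands were scarce and lay within counting error. Tnfsf4, which encodes OX40 ligand, had 79 counts in the pTh17 and 70 in the npTh17 library (1.22-fold, 0.87 to 1.71, higher in the pTh17 library). Tnfsf9, which encodes 4-1BB ligand, had 93 and 120 (1.19-fold higher in the npTh17 library, 0.90 to 1.58). Tnfsf10, which encodes the death ligand TRAIL, had 50 and 76 (1.40-fold higher in the npTh17 library, 0.97 to 2.05). Tnfsf9 is uncertain for a further reason, as 11.5% of its 50-base stretches also occur in other annotated transcripts.

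**Figure D2:**
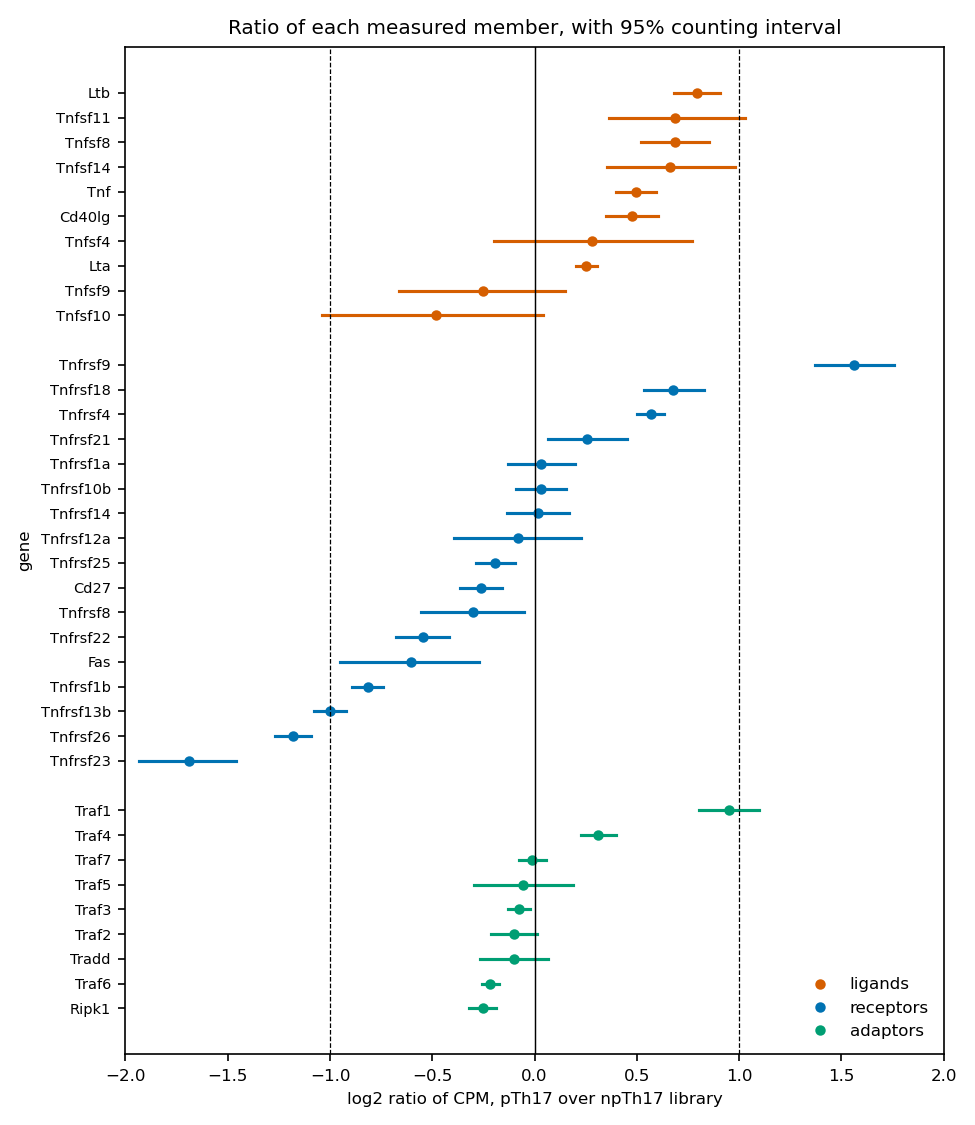
Log2 ratio of CPM, pTh17 over npTh17 library (x axis), for each of the 36 measured members (y axis), with 1 library per condition; points are ratios, bars are 95% counting intervals and dashed lines mark 2-fold. Ligands lie mostly to the right of 0, receptors spread from −1.69 for Tnfrsf23 to 1.56 for Tnfrsf9, and adaptors lie near 0 apart from Traf1 at 0.95.

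Costimulatory receptors went in both directions. Of the 9 in the list 8 were measured, 4 with a ratio above 1 and 4 below (49.4% and 50.6% of all measured genes). Their median log2 ratio was −0.09. Those higher in the pTh17 library beyond counting error were 4-1BB, GITR and OX40, whose signals promote division and survival of activated T cells. Those higher in the npTh17 library beyond counting error were the second TNF receptor, CD30, CD27 and DR3, though the CD30 interval ends close to 1.

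Tnfrsf9 (ENSMUSG00000028965, chromosome 4, 150914562 to 150946102), which encodes 4-1BB, had the highest ratio of all measured members. It had 834 counts in the pTh17 and 305 in the npTh17 library, or 27.0 and 9.13 CPM, a 2.95-fold ratio (2.59 to 3.38). None of its 50-base stretches occurs in another annotated gene's transcripts. Across 11 other ways of processing, its log2 ratio stayed between 1.48 and 1.67, beside 1.56 as given here.

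Tnfrsf4 and Tnfrsf18, which encode OX40 and GITR, are neighbours within 15.1 kb of chromosome 4 and were both higher in the pTh17 library. Tnfrsf4 had 4521 and 3298 counts in the pTh17 and the npTh17 library, or 146 and 98.7 CPM, a 1.48-fold ratio (1.42 to 1.55). Tnfrsf18 had 953 and 643 counts, or 30.8 and 19.2 CPM, a 1.60-fold ratio (1.45 to 1.77). By FPKM, Tnfrsf4 was the most abundant receptor in both libraries, at 124.4 and 84.3. Both transcripts are short, and taking out the trend on length and GC content brought Tnfrsf4 from a log2 ratio of 0.57 to 0.31 and Tnfrsf18 from 0.68 to 0.45. An antisense gene, Gm16008, covers 27.2% of the Tnfrsf18 exon bases on the other strand, and 18.7% of the Tnfrsf18 50-base stretches occur in other annotated transcripts. Without strand information reads of the pair cannot be told apart, and the value is uncertain.

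Tnfrsf1b, which encodes the second TNF receptor, was the costimulatory receptor with the largest difference toward the npTh17 library. This receptor binds TRAF proteins directly and has no death domain. Its gene (ENSMUSG00000028599, chromosome 4, 145213463 to 145246870) had 2071 counts in the pTh17 and 3941 in the npTh17 library, or 67.0 and 118 CPM, a 1.76-fold ratio (1.67 to 1.86). Tnfrsf1a, the first TNF receptor, which has a death domain, had 595 and 629 counts and did not differ beyond counting error (1.02-fold higher in the pTh17 library, 0.91 to 1.15). The FPKM of Tnfrsf1b was 1.92 times that of Tnfrsf1a within the pTh17 library and 3.51 times within the npTh17 library.

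Other costimulatory receptors showed smaller ratios. Cd27, whose ligand is CD70, had 1413 counts in the pTh17 and 1830 in the npTh17 library and was 1.20-fold higher in the latter (1.12 to 1.28). Tnfrsf8, which encodes CD30 and adjoins Tnfrsf1b on chromosome 4, had 229 and 305 counts and was 1.23-fold higher in the npTh17 library (1.03 to 1.47). Tnfrsf25, which encodes DR3 and carries a death domain, had 1648 and 2034 counts and was 1.14-fold higher there (1.07 to 1.22). Tnfrsf14, which encodes HVEM, had 689 and 736 counts, and its log2 ratio of 0.02 turned to −0.20 with the length and GC trend removed.

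Death domain receptors showed no common direction. All 5 were measured, 3 with a ratio above 1 and 2 below (49.4% and 50.6% of all measured genes). Their median log2 ratio of 0.03 became −0.04 with the length and GC trend removed. Fas, the receptor that deletes activated T cells when it meets Fas ligand, was 1.52-fold higher in the npTh17 library (1.21 to 1.93) at 119 counts in the pTh17 and 196 in the npTh17 library, or 3.85 and 5.87 CPM. Tnfrsf21, which encodes DR6, had 468 and 423 counts and was 1.20-fold higher in the pTh17 library (1.05 to 1.37). Tnfrsf10b, the mouse TRAIL death receptor, had 1037 and 1097 counts, or 33.5 and 32.8 CPM, a difference within counting error (1.02-fold, 0.94 to 1.11).

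Tnfrsf13b, which encodes TACI, stood out for its abundance as well as its ratio. TACI binds the cytokines BAFF and APRIL and is best known on B cells. The gene (ENSMUSG00000010142, chromosome 11, 61126755 to 61149372) had 2022 counts in the pTh17 and 4372 in the npTh17 library, or 65.4 and 131 CPM, a 2.00-fold ratio (1.90 to 2.11). It sits on the 2-fold threshold and falls below it with total-count scaling, upper quartile scaling, a prior count of 5 or the length trend removed, leaving 2 members past 2-fold toward the npTh17 library. Among the 50 genes its FPKM had rank 3 in the npTh17 library, at 46.4, and rank 13 in the pTh17 library, at 22.6. The 6 B cell markers summed to only 25 counts in the pTh17 and 6 in the npTh17 library (0.808 and 0.179 CPM), with Pax5 and Cd22 at 0. Traces of Cd40 (0 and 20 counts) and of the B cell gene Tnfrsf13c (0 and 15) went the same way as Tnfrsf13b. Whether B cells contribute to the Tnfrsf13b counts was not tested. The ligand genes of TACI were nearly undetected, with 3 and 0 counts for Tnfsf13b and 0 and 2 for Tnfsf13.

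Tnfrsf26, Tnfrsf22 and Tnfrsf23 lie in a row within 78.2 kb of chromosome 7, and all were higher in the npTh17 library. Mouse Tnfrsf22 and Tnfrsf23 encode decoy receptors, which bind TRAIL and lack a death domain. Tnfrsf26 stands in none of the role lists. Tnfrsf23 (ENSMUSG00000037613, chromosome 7, 143665809 to 143685872) had 190 counts in the pTh17 and 665 in the npTh17 library, or 6.14 and 19.9 CPM, a 3.23-fold ratio (2.75 to 3.83) and the lowest log2 ratio of all measured members. Tnfrsf26 (ENSMUSG00000045362, chromosome 7, 143607659 to 143628722) had 1473 and 3605 counts, or 47.6 and 108 CPM, a 2.26-fold ratio (2.13 to 2.41). Tnfrsf22 (ENSMUSG00000010751, chromosome 7, 143634806 to 143649661) had 793 and 1252 counts, or 25.6 and 37.5 CPM, a 1.46-fold ratio (1.33 to 1.60). The order of the ratios was therefore Tnfrsf23, Tnfrsf26, Tnfrsf22, with intervals that do not overlap.

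The values of Tnfrsf22 and Tnfrsf23 are uncertain because the genes share sequence. Of the 50-base stretches of Tnfrsf22, 27.4% occur in transcripts of other genes, and of those of Tnfrsf23, 19.3%. Of the 50-base stretches of Tnfrsf22, 17.3% occur in Tnfrsf23 transcripts, and of those of Tnfrsf23, 18.0% occur in Tnfrsf22 transcripts, so reads there can be assigned to either. Tnfrsf26 shares none with the other two, and 1.89% of its stretches occur in any other gene. Its ratio therefore rests on sequence of its own, apart from 107 exon bases that the antisense gene E230032D23Rik covers.

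**Figure D3:**
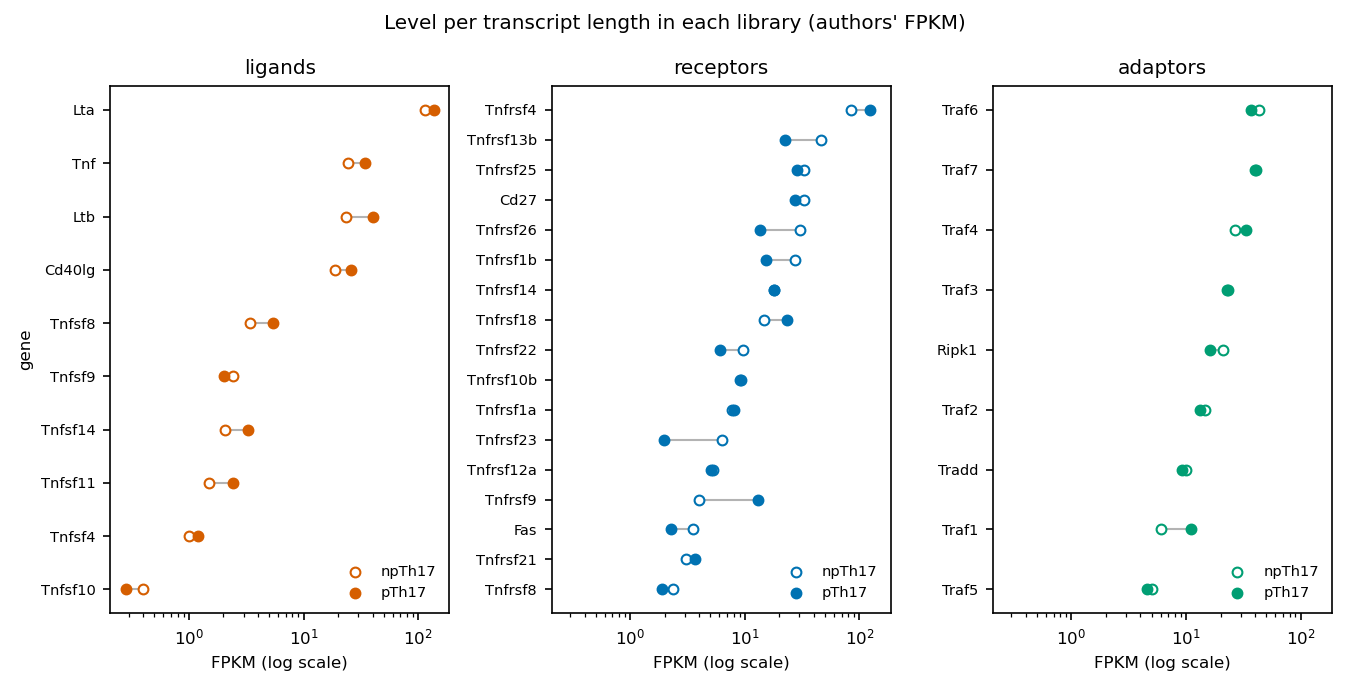
Authors' FPKM of each measured member (x axis, log scale) in the pTh17 (filled points) and npTh17 library (open points), with 1 library per condition; rows are genes, in the order of their npTh17 value, in panels for 10 ligands, 17 receptors and 9 adaptors. Lta and Tnfrsf4 have the highest values in both libraries, and the widest gaps between filled and open points belong to Tnfrsf9 and Tnfrsf23.

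All 9 adaptor genes were measured, 2 with a ratio above 1 and 7 below (49.4% and 50.6% of all measured genes). Their median log2 ratio was −0.08. Apart from Traf1, all had log2 ratios between −0.25 and 0.31.

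Traf1, which has no RING domain of its own and acts with TRAF2 downstream of 4-1BB and the second TNF receptor, was the adaptor with the largest difference. It had 1061 counts in the pTh17 and 593 in the npTh17 library, or 34.3 and 17.7 CPM, a 1.93-fold ratio (1.75 to 2.14). Traf2 had 1166 and 1351 counts, or 37.7 and 40.4 CPM, a difference within counting error (1.07-fold higher in the npTh17 library, 0.99 to 1.16). The FPKM of Traf1 was 0.83 times that of Traf2 within the pTh17 library and 0.42 times within the npTh17 library. Traf1 was the only adaptor past 1.5-fold in either direction. Of all measured genes, 7.2% passed that fold toward the pTh17 and 5.76% toward the npTh17 library.

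Traf4 was the other adaptor with a ratio above 1, at 2437 counts in the pTh17 and 2122 in the npTh17 library, or 78.8 and 63.5 CPM (1.24-fold, 1.17 to 1.32). Traf6, the ubiquitin ligase that also serves interleukin-1 and Toll-like receptors, was the adaptor with the most counts, 8074 and 10136, or 261 and 303 CPM, and was 1.16-fold higher in the npTh17 library (1.13 to 1.20). Ripk1, the kinase that joins death domain receptors to survival or death, had 3219 and 4149 counts, or 104 and 124 CPM, and was 1.19-fold higher in the npTh17 library (1.139 to 1.249). In these genes small ratios exceed counting error because the counts are high. That is not a measure of how far 2 cultures of the same condition would differ.

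Traf3, which restrains the alternative NF-kB pathway, had 5267 and 6000 counts in the pTh17 and the npTh17 library, or 170 and 179 CPM, and was 1.05-fold higher in the latter (1.02 to 1.09). Traf5 had 268 and 301 counts, or 8.67 and 9.01 CPM (1.04-fold higher in the npTh17 library, 0.88 to 1.23). Traf7 had 3674 and 4002 counts, or 119 and 120 CPM (1.01-fold, 0.96 to 1.05, likewise). Tradd, which links the first TNF receptor to RIPK1 and TRAF2, had 551 and 639 counts, or 17.8 and 19.1 CPM (1.07-fold, 0.96 to 1.20, likewise). Of these 4, only Traf3 had an interval that excludes a ratio of 1.

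In several pairs, ligand and receptor differed between the libraries in opposite ways or in 1 gene only. Tnfrsf9 was 2.95-fold higher in the pTh17 library, while the interval of its ligand gene Tnfsf9 included a ratio of 1, and the FPKM of receptor over ligand was 6.36 within the pTh17 and 1.65 within the npTh17 library. Tnfsf8 was higher in the pTh17 library and its receptor gene Tnfrsf8 in the npTh17 library, though the Tnfrsf8 interval ends close to 1. Tnf and Lta were higher in the pTh17 library, Tnfrsf1b in the npTh17 library, and Tnfrsf1a was within counting error. For the remaining pairs with both genes measured, the receptor's FPKM was well above the ligand's in both libraries. It was 103 times in the pTh17 and 84.5 times in the npTh17 library for Tnfrsf4 over Tnfsf4. For Tnfrsf10b over Tnfsf10 it was 32.9 and 22.9 times, and for Tnfrsf14 over Tnfsf14 it was 5.50 and 8.70 times.

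Several partners were at or below the limit of detection. A floor of 3 counts corresponds to 0.097 CPM in the pTh17 and 0.0898 CPM in the npTh17 library. No count in either library was found for Cd70, the ligand of CD27, for Ltbr, the receptor of surface lymphotoxin and LIGHT, for the RANK ligand receptors Tnfrsf11a and Tnfrsf11b, or for Tnfrsf17, Tnfsf12, Tnfsf15 and Tnfsf18. Cd40, the receptor of CD40 ligand on antigen-presenting cells, had 0 counts in the pTh17 and 20 in the npTh17 library, at least 6.17-fold higher in the latter with the 0 set to the floor and the 20 taken as exact, while the counting interval puts its lower limit at 4.57-fold. Tnfrsf13c, the BAFF receptor of B cells, had 0 and 15 counts, at least 4.63-fold higher in the npTh17 library by the same floor, with a lower counting limit of 3.32-fold. At this depth both are traces, 0.598 and 0.449 CPM, beside B cell markers of 25 counts in the pTh17 and 6 in the npTh17 library and macrophage marker Itgam of 0 and 24; whether other cells contribute to these traces was not tested.

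Fasl, the ligand of Fas, had 33 and 27 counts, just below the level of a measured gene, with a 1.31-fold ratio whose interval included 1 (0.77 to 2.28). Tnfrsf19 had 26 counts in the pTh17 and 11 in the npTh17 library (2.42-fold, 1.22 to 5.73). Tnfrsf12a, the receptor for the cytokine TWEAK, was measured, with 166 and 190 counts, and lay within counting error (1.06-fold higher in the npTh17 library, 0.86 to 1.31), while its ligand gene Tnfsf12 had none. Tnfsf12 and Tnfsf13 share exons with the fused gene Tnfsfm13 on the same strand, which leaves their counts uncertain.

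Neighbouring members went the same way in some places and not in others. In 9 places members lie within 100 kb of each other. The genes of the Ltb, Tnf and Lta group and of the Tnfrsf4 and Tnfrsf18 pair were all higher in the pTh17 library. Those of the Tnfrsf26, Tnfrsf22 and Tnfrsf23 group and of the Tnfrsf1b and Tnfrsf8 pair were all higher in the npTh17 library. On chromosome 17, Tnfsf14 was higher in the pTh17 library while Tnfsf9, within the same 88.9 kb, had a log2 ratio of −0.25 inside counting error. In the remaining 4 places at most 2 genes were measured. The place with 2 was that of Cd27 and Tnfrsf1a, at log2 ratios of −0.26 and 0.03, the latter within counting error.

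The genes through which these receptors signal were followed in 5 lists. The NF-kB subunits and the IκB family of NF-kB regulators lay mostly toward the pTh17 library, while the proximal receptor complex lay slightly toward the npTh17 library. The median over all measured genes was −0.00.

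Of 22 genes of the TNF receptor complex and its ubiquitin system, all measured, 6 had a ratio above 1 and 16 below. Over all measured genes 49.4% had a ratio above 1 and 50.6% below. The median log2 ratio of the 22 was −0.13. Tnfaip3, which encodes the brake A20, had the highest ratio, at 1909 counts in the pTh17 and 1257 in the npTh17 library (1.64-fold, 1.53 to 1.76). Map3k7, which encodes the kinase TAK1, had 4384 and 7006 counts and was 1.48-fold higher in the npTh17 library (1.42 to 1.54). Ikbke was 1.37-fold (1.26 to 1.49) and Tank 1.31-fold higher there (1.23 to 1.41), and both belong to the branch around TBK1. Birc2 and Birc3, the ubiquitin ligases that TRAF2 brings to the receptor, went in opposite ways, with log2 ratios of −0.35 and 0.14. None of the 22 reached 2-fold, which 2.25% of all measured genes did toward the pTh17 and 1.95% toward the npTh17 library.

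Of 9 genes of the canonical NF-kB arm, all measured, 8 had a ratio above 1, 5 reached 1.5-fold and none 2-fold toward the pTh17 library, with a median of 0.61. Of all measured genes 49.4% had a ratio above 1, and 7.2% and 2.25% reached these folds in that direction. The largest ratios belonged to genes of the IκB family. Nfkbia, which encodes IκBα, had 4028 and 2307 counts (1.89-fold, 1.79 to 1.99), Nfkbie had 667 and 388 (1.86-fold, 1.64 to 2.11), and Nfkbid had 5048 and 3173 (1.72-fold, 1.64 to 1.80). Among the subunits, Rel was 1.54-fold higher in the pTh17 library (1.47 to 1.61) and Rela 1.10-fold (1.05 to 1.15), and Nfkb1, at 15101 and 16652 counts, was within counting error. In the alternative arm 6 of 7 genes were measured, 4 above and 2 below a ratio of 1, with a median of 0.16. Nfkb2 was 1.60-fold (1.54 to 1.66) and Otud7b 1.41-fold higher in the pTh17 library (1.34 to 1.49). Map3k14, the NF-kB-inducing kinase that TRAF3 holds down, was 1.20-fold higher in the npTh17 library (1.13 to 1.28).

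Of 20 known NF-kB target genes, all measured, 17 had a ratio above 1, 12 reached 1.5-fold and 4 reached 2-fold, each toward the pTh17 library, with a median of 0.64. The shares of all measured genes were 49.4%, 7.2% and 2.25%. This list shares Nfkbia, Nfkbie, Nfkbiz, Nfkb2, Relb, Birc3 and Tnfaip3 with the lists above, so the medians are not separate results. The highest was Il2, which encodes interleukin-2, at 988 and 206 counts (5.16-fold, 4.46 to 6.05). The others past 2-fold, named after their values were seen, were Ccl3, Cd83 and Ier3, each with at most 145 counts in a library. Nfkbia and Nfkbie followed Il2 among the better expressed targets. Bcl2a1b, a survival gene of a family of near copies and uncertain for that reason, was 1.23-fold higher in the npTh17 library (1.13 to 1.34).

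Of 10 death signalling genes, all measured, 6 had a ratio above 1 and 4 below (49.4% and 50.6% of all measured genes). Their median was 0.07. Casp8 and its regulator Cflar were 1.22-fold (1.16 to 1.28) and 1.20-fold higher in the npTh17 library (1.153 to 1.248). In this list 1 gene passed 2-fold, toward the pTh17 library, beside 2.25% of all measured genes. It was Mlkl, the effector of necroptosis, chosen for mention after its values were seen, at 60 and 17 counts (3.65-fold, 2.20 to 6.97). Ripk3, its activator, was 1.13-fold higher in the pTh17 library (1.06 to 1.21).

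Transcript length moves with some of these ratios. The members' transcripts had a median of 2196 bases, against 3429 for all measured genes, and the median log2 ratio of all genes was 0.10 among the shortest transcripts and between −0.05 and −0.02 in the other 3 length classes of equal size. With the trend on length and GC content removed, the ligand median was 0.38 with 8 of 10 still above a ratio of 1, the receptor median was −0.33 and the adaptor median −0.07. The members that moved furthest were Tnfrsf12a, from −0.08 to −0.40, Tnfrsf4 and Tnfrsf18.

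**Figure D4:**
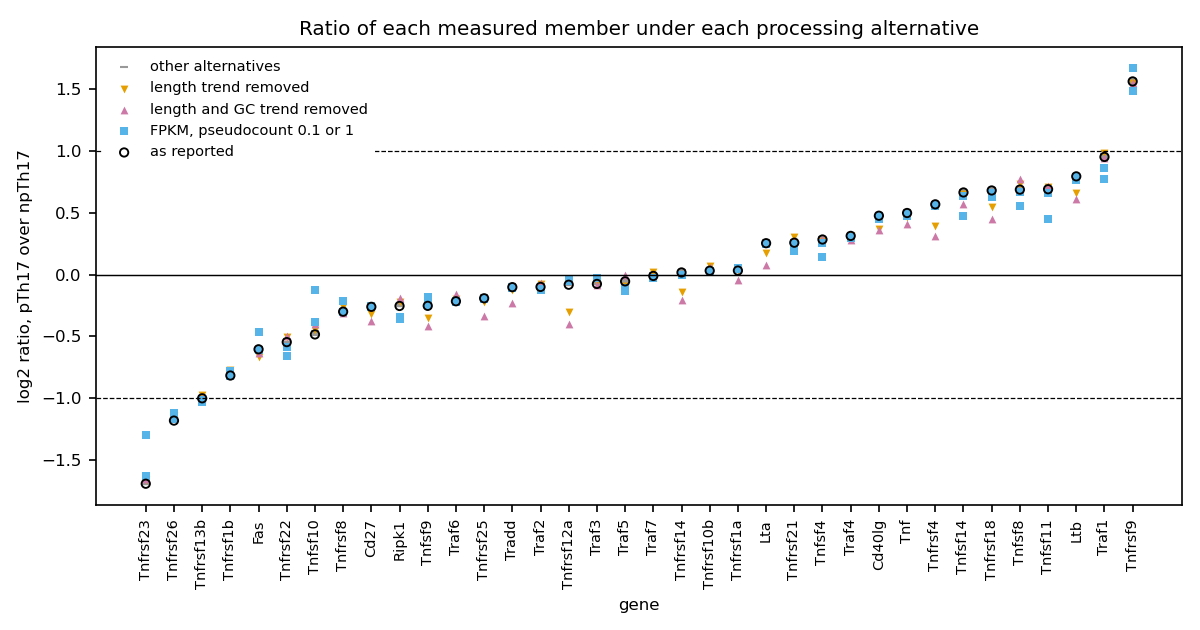
Log2 ratio, pTh17 over npTh17 library (y axis), of each of the 36 measured members (x axis, ordered by the reported value) under the reported processing (open circles) and 11 alternatives, with 1 library per condition; dashed lines mark 2-fold. Tnfrsf9 stays between 1.48 and 1.67 throughout, and of 391 values under alternatives 384 keep the sign of the reported value.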

How the data were processed

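Polyadenylated RNA of 2 cultures was sequenced, 1 library per condition. The authors deposited whole-number counts per gene and FPKM values for the same rows, per the file headers. Per the submitters' processing notes, reads were handled on mm10; which aligner, counter and annotation served is not given in the sources used here, and no strand-marking step or molecular identifier is described.

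Of the rows in the deposited count table, 20 held no value and were dropped. Features without a name, 2.50% of pTh17 and 2.90% of npTh17 counts, were left out. Counts of 2 were more frequent (361 features in each library) than counts of 1 (93 and 79), so a fragment may have added more than 1 and the counting intervals can be too narrow. PCR reads are also not independent molecules.

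CPM used TMM library sizes (edgeR 4.0.16, R 4.3.3), and log2 ratios a prior count of 1. Intervals are Clopper-Pearson intervals of the share of counts in the pTh17 library (scipy 1.17.1). A library at 0 was set to a floor of 3 counts only for the folds given as at least a value (Cd40 and Tnfrsf13c). Log2 ratios of such genes used the prior count. FPKM served only to compare levels between genes and as an alternative. Positions, lengths and shared 50-base stretches come from GENCODE M21, promoter windows from RefSeq. The calculations were tested on simulated counts that carry counting error only. That cannot show whether the intervals are wide enough for the real counts.

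Members, gene lists and the naming rule were chosen with earlier results of these data known. The rule gives full values for members whose interval lies outside 1.25-fold, for measured pairs and for adaptors, and up to 3 genes per direction from each pathway list with a mean of at least 5 CPM; Birc2, Birc3, Rel, Rela, Nfkb1, Casp8, Cflar and Ripk3 were named beyond it for their roles. Some genes that the rule names are left unreported, though list counts and medians include them. Alternatives covered scaling (DESeq2 1.42.0 size factors, total counts, upper quartile), filters, prior counts, FPKM, and length and GC trends.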

Additional observations from a re-analysis of the deposited data

How the results depend on the processing

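Lowering the fold threshold to 1.5 raised the members called from 1 to 7 toward the pTh17 library and from 3 to 5 toward the npTh17 library. Without the filter on low counts, 42 members had a count in either library, and 3 and 6 of them were past 2-fold, the added ones (Tnfrsf19, Tnfsf13b, Cd40, Tnfrsf13c and Tnfsf13) with at most 26 counts in a library. The median log2 ratio of the members ran from −0.07 to −0.01 over the 11 alternatives. Of 391 single values, 7 had the other sign: 4 for Tnfrsf14, 2 for Traf7 and 1 for Tnfrsf1a, each within counting error of a ratio of 1 as reported. With a FPKM pseudocount of 1, low genes moved toward 0, for example Tnfrsf23 to −1.30 and Traf1 to 0.77. No paired analysis was possible because each condition has 1 library, and no library could be left out. Depth limits the scarce ligands Tnfsf4, Tnfsf9 and Tnfsf10, whose intervals include 1.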
